A study of Homo sapiens with 6 samples.

Results

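The 9 genes described here make, receive or break down prostaglandin E2, and they were taken by symbol from the deposited count table. These were the phospholipase gene PLA2G4A, the cyclooxygenase genes PTGS1 and PTGS2, the prostaglandin E synthase genes PTGES and PTGES2, the receptor genes PTGER2 and PTGER4, and HPGD and PTGR1, whose enzymes break prostaglandins down. All 9 were found among the 57396 genes of the table, and 8 of them passed the filter on low counts. RNA was sequenced from PC-3, an established human prostate carcinoma line, after 5 days with 160 µM S-adenosylmethionine (SAM, the methyl donor of most cellular methyltransferases) or with PBS, called vehicle in the protocol, as the control. Each group held 3 libraries. The labels do not state that libraries of a group came from separate cultures, so the p-values describe the spread between libraries, part of which may be technical. Both groups are cultures of 1 line, with no stroma or immune cells added by the labels.

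Prostaglandin E2 is made in 3 steps. A phospholipase A2 frees arachidonate from membranes, a cyclooxygenase turns it into prostaglandin H2, and a prostaglandin E synthase completes the product. The product leaves the cell and acts on EP receptors, of which EP2 and EP4 raise cyclic AMP, and it is inactivated when 15-hydroxyprostaglandin dehydrogenase and then a prostaglandin reductase oxidise and reduce it. Cyclooxygenase 2 is inducible and is known for its role in inflammation and in epithelial cancers, prostate carcinoma among them.

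The libraries held between 9379258 and 28995160 gene counts, so that 3 counts corresponded to 0.103 to 0.320 CPM by library totals alone. Apart from this floor, CPM values are counts scaled to library size with TMM factors. Control 1 and SAM 2 stood apart from the other libraries of their groups. The chi-square per degree of freedom was 25.3 and 28.6 between control 1 and the other controls against 4.57 between those 2, and 49.98 and 55.2 for SAM 2 against 22.3 between the other SAM libraries. SAM 3 differed in another respect: its log2 levels rose with the GC content of the transcript by 0.12 per 10 percentage points, against -0.06 to 0.00 in the other 5 libraries, and fell by 0.12 per doubling of transcript length. Epithelial genes were abundant in both groups, with the keratin gene KRT8 at 876 CPM ± 44.7 in controls and 816 CPM ± 98.8 with SAM (SD, n = 3). CDH1, the E-cadherin gene, was the only one of the 4 epithelial genes called, lower with SAM at 267 CPM ± 31.7 against 365 CPM ± 22.3. KLK3, the gene of prostate-specific antigen, which PC-3 is known to lack, had 0 counts in all 6 libraries. This allows a level of up to the floor of 0.103 to 0.320 CPM per library. The 4 leukocyte genes and the 3 endothelial genes in the table were all too low to test, at no more than 0.594 CPM. Of the 4 fibroblast genes, only COL1A1 was tested, at 17.7 CPM ± 1.02 in controls and 16.8 CPM ± 0.181 with SAM.

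To find which steps of prostaglandin E2 turnover differed with SAM, each gene was read from 1 fit across all 15312 genes tested. HPGD, the gene of the dehydrogenase that starts prostaglandin breakdown, was lower with SAM, at 0.453 of the control level. None of the 7 other tested genes passed edgeR's quasi-likelihood test at an adjusted p under 0.05 (Benjamini-Hochberg over all genes tested). DESeq2 and limma voom also called none of the 7. At an unadjusted edgeR p under 0.05, PTGS1 and PTGES2 were above the controls and PTGER4 below them. The count of 1 called gene in 8 compares with a background of 10.4% of all genes tested, 5.19% higher and 5.24% lower. The 3 SAM libraries did not overlap the 3 controls in 5 of the 8 genes, where the background was 36.7%. They lay above the controls for PTGS1, PTGES2 and PTGR1 (background 17.9%) and below them for PTGER4 and HPGD (background 18.8%). The median log2 fold change of the 8 genes was 0.12, beside -0.01 over all genes tested. In RNA from whole cultures, fewer cells expressing a gene and less RNA per cell cannot be told apart.

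**Figure D1:**
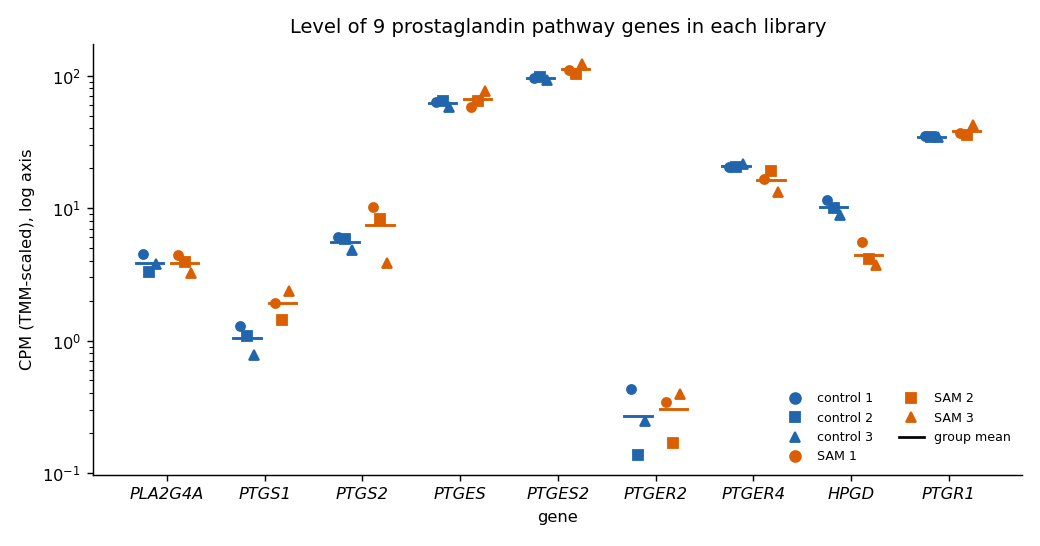
Level of each of the 9 genes in each library, in CPM on a log axis. Blue points are controls and orange points SAM libraries, with marker shapes for library numbers and bars for group means. The HPGD points of the SAM libraries lie at 3.70 to 5.51 CPM, all below the controls at 8.81 to 11.6 CPM, while the SAM points of PTGS2 lie on both sides of its controls.

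The first step was represented by PLA2G4A (ENSG00000116711, chromosome 1, positions 186828953 to 186988981, plus strand, GRCh38 as for all positions below), the gene of cytosolic phospholipase A2 alpha. It was at 4.51, 3.27 and 3.77 CPM in controls 1 to 3 and at 4.41, 3.89 and 3.23 CPM in SAM 1 to 3. The groups covered nearly the same range. The log2 fold change was 0.04 with a 95% interval of -0.38 to 0.47 (edgeR adjusted p = 0.898), which leaves room for a difference of either sign at this depth of 42 to 128 counts per library. The gene lies 148525 bases from PTGS2, with 0 genes of the table between them.

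The cyclooxygenase genes were both expressed at low levels. PTGS1 (ENSG00000095303, chromosome 9, positions 122370530 to 122395703, plus strand) encodes cyclooxygenase 1, the constitutive form. It had 12, 24 and 16 counts in the controls and 56, 17 and 36 with SAM, equal to 1.29, 1.09 and 0.783 CPM against 1.93, 1.44 and 2.38 CPM. Every SAM library was above every control. The log2 fold change of 0.93 ± 0.27 (SE) had an interval of 0.32 to 1.54, and its edgeR adjusted p of 0.0580 missed the threshold. It passed in 3 of 18 alternative fits. These were without SAM 2 (log2 fold change 1.06, adjusted p = 0.0292), without a filter on low counts (0.93, adjusted p = 0.0289) and with GC and length trends removed (0.997, adjusted p = 0.0305). These 3 fits also called more genes of the whole table, at 3233, 2743 and 3203 against 1598. They tested 15896, 30874 and 14882 genes, against 15312 in the main fit. In the others it did not pass, with an edgeR adjusted p of 0.263 without control 3.

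PTGS2 (ENSG00000073756, chromosome 1, positions 186671791 to 186680427, minus strand) encodes the inducible cyclooxygenase 2. Its controls lay close together at 6.01, 5.86 and 4.80 CPM. The SAM libraries were spread from 10.2 and 8.20 CPM in SAM 1 and SAM 2, above every control, to 3.83 CPM in SAM 3, below every control. The SD was 0.659 CPM in controls and 3.24 CPM with SAM (n = 3), and the log2 fold change of 0.45 ± 0.30 (SE, interval -0.21 to 1.11) did not pass (edgeR adjusted p = 0.329). A single library decided this call: without SAM 3 the log2 fold change was 0.77 with an adjusted p of 0.0139, and without SAM 1 it was 0.10 with an adjusted p of 0.863. The PTGS2 transcript has a GC content of 36.8%, and SAM 3 was the library with the steepest trend towards GC-rich transcripts. With the trends on GC content and length removed from each library the log2 fold change was 0.53 ± 0.24 (adjusted p = 0.141).

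**Figure D2:**
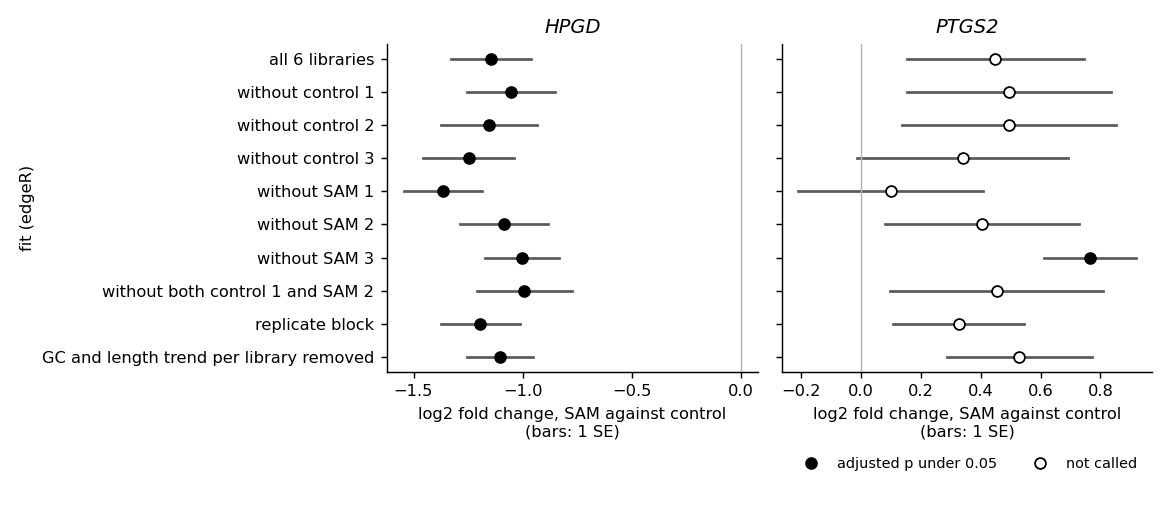
Log2 fold change of HPGD (left) and PTGS2 (right), SAM against control, in the edgeR fit of all 6 libraries and in 9 other fits, with bars of 1 SE and filled points for an adjusted p under 0.05. HPGD lies between -1.36 and -0.99 and is filled in all 10 fits, while PTGS2 lies between 0.10 and 0.77 and is filled only without SAM 3.

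The genes with the profile most like that of PTGS2 over the 6 libraries were picked by correlation, as a description. Their high r follows from this search and was not tested. The search covered 10906 tested genes whose log2 CPM averaged 2 or more and whose symbol was in capitals, without clone and some noncoding RNA names. Among these, the 5 most like PTGS2 were NAPEPLD (Pearson r = 0.99), PRPF4B, TMEM64, LYRM7 and TDG (all r = 0.99). NAPEPLD, whose enzyme releases N-acylethanolamines such as anandamide from membranes, was at 12.0, 12.4 and 11.2 CPM in the controls and at 14.5, 13.6 and 10.6 CPM with SAM. TDG, a thymine DNA glycosylase that acts in DNA demethylation, was at 34.5, 32.9 and 31.9 CPM and at 41.3, 36.9 and 28.8 CPM. As for PTGS2, each of these had its highest value in SAM 1 and its lowest in SAM 3. Their transcripts had GC contents of 36.7 to 40.3%, and each correlation describes 6 libraries of unequal depth and GC trend.

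The region before the PTGS2 start is shown because it holds, close together, 2 elements read in the cyclic AMP and basal control of promoters. In the 250 bases upstream of the RefSeq start (GRCh38.p14, chr1:186680424-186680673, minus strand, 5′ to 3′), capitals mark a TGACG cyclic AMP response element core, which reads on the opposite strand and so appears as CGTCA with its first base at -58, and a TATAAA box with its first base at -32.
PTGS2: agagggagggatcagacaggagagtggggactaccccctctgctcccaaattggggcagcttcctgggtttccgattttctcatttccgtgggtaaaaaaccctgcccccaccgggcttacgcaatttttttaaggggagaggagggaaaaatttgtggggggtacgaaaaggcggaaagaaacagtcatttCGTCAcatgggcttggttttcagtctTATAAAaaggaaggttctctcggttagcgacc
TGACG was found on either strand in 21.2% of the 35116 promoters of that length in the RefSeq table, and TATAAA in 10.7%. PTGS2 had no CACGTG E-box, which 6.34% of promoters held, no GGGCGG GC box (42.6%) and no TGANTCA AP-1 site (6.57%). All 9 genes had an entry, and the only other one with TGACG was PTGER2, at -137. These matches describe letters in the window and say nothing of which factor was bound.

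The terminal synthases were the most abundant of the 9 genes. PTGES2 (ENSG00000148334, chromosome 9, positions 128120693 to 128128462, minus strand), the gene of the membrane-associated synthase 2, was at 95.9, 97.3 and 92.5 CPM in the controls and at 110.8, 103.3 and 123.4 CPM with SAM. The groups did not overlap. It differed by a log2 fold change of 0.24 ± 0.10 (SE, interval 0.02 to 0.46), with an edgeR adjusted p of 0.137. Its transcript has a GC content of 65.0%, and the value with GC and length trends removed was 0.11 (adjusted p = 0.343). Of 18 alternative fits, only leaving out SAM 2 gave a call (0.30, adjusted p = 0.0447).

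PTGES (ENSG00000148344, chromosome 9, positions 129738331 to 129753047, minus strand) encodes microsomal prostaglandin E synthase 1, the inducible form that is often coupled to cyclooxygenase 2. It was at 63.4, 64.5 and 58.4 CPM in the controls and at 57.6, 64.8 and 77.2 CPM with SAM. SAM 1 was below every control and SAM 3 above every control, the opposite order to that of PTGS2. This gave a log2 fold change of 0.10 ± 0.12 (SE, interval -0.16 to 0.36, edgeR adjusted p = 0.595), and it was -0.02 without SAM 3. The PTGES transcript has a GC content of 56.4%. With GC and length trends removed the log2 fold change was 0.006 (edgeR adjusted p = 0.968).

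The receptor genes differed in abundance. PTGER4 (ENSG00000171522, chromosome 5, positions 40679498 to 40693735, plus strand), the gene of EP4, was at 20.6, 20.6 and 21.5 CPM in the controls and at 16.5, 18.9 and 13.3 CPM with SAM. Every SAM library lay below the controls, which had an SD of 0.556 CPM against 2.81 CPM with SAM (n = 3). The log2 fold change of -0.37 ± 0.13 (SE, interval -0.66 to -0.07) had an edgeR adjusted p of 0.0987. It was past the threshold in 2 of 18 alternative fits, without SAM 2 (-0.48, adjusted p = 0.0273) and with GC and length trends removed (-0.35, adjusted p = 0.0479). In the others it was not, with an edgeR adjusted p of 0.298 without control 3.

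PTGER2 (ENSG00000125384, chromosome 14, positions 52314305 to 52328606, plus strand), the gene of EP2, had 4, 3 and 5 counts in the controls and 10, 2 and 6 with SAM. This is 0.136 to 0.429 CPM, at or near the level of 3 counts, and the gene was below the filter. A difference of EP2 transcript between the groups was not detectable at this depth.

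**Figure D3:**
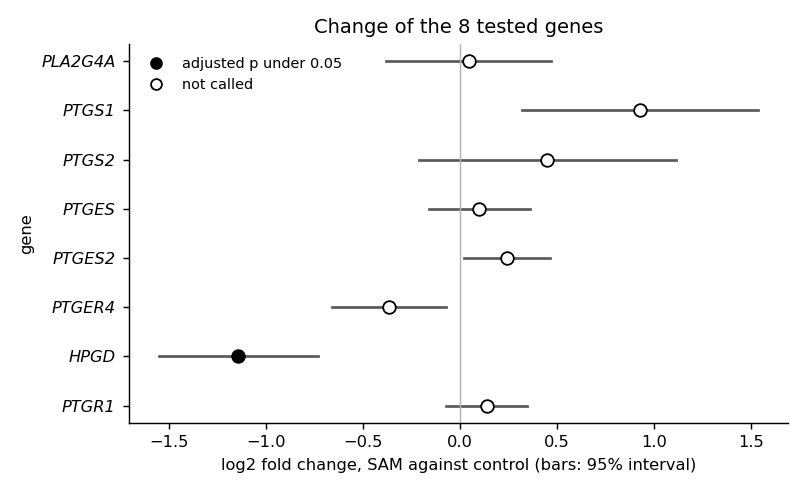
Log2 fold change of the 8 tested genes, SAM against control, from edgeR, with bars for the 95% interval and a filled point for an adjusted p under 0.05. The intervals of HPGD and PTGER4 lie below 0 and those of PTGS1 and PTGES2 above it, and HPGD alone is filled, at -1.14.

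Of the 9 genes, the 1 that passed the test belongs to breakdown. HPGD (ENSG00000164120, chromosome 4, positions 174490177 to 174523154, minus strand) encodes 15-hydroxyprostaglandin dehydrogenase, which oxidises prostaglandin E2 and ends its action on EP receptors. It had 108, 221 and 180 counts in controls 1 to 3 and 160, 49 and 56 in SAM 1 to 3, equal to 11.6, 10.03 and 8.81 CPM against 5.51, 4.14 and 3.70 CPM. The highest SAM library was below the lowest control. The mean fell from 10.1 CPM ± 1.39 to 4.45 CPM ± 0.945 (SD, n = 3). The log2 fold change was -1.14 ± 0.18 (SE, interval -1.55 to -0.73), with an edgeR adjusted p of 0.00836. It was called in all 18 alternatives that were run, with log2 fold changes of -1.36 to -0.99 and adjusted p from 6.9e-08 to 0.0446. Without both control 1 and SAM 2 it was -0.99 (edgeR adjusted p = 0.0324). Its transcript is GC-poor, at 35.1%, and with GC and length trends removed the value was -1.10 (adjusted p = 0.00153).

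The HPGD promoter is shown because it belongs to the gene that fell and because SAM is the methyl donor for CpG methylation, which these libraries did not measure. In the 250 bases before the RefSeq start (GRCh38.p14, chr4:174522489-174522738, minus strand, 5′ to 3′), capitals mark each CpG.
HPGD: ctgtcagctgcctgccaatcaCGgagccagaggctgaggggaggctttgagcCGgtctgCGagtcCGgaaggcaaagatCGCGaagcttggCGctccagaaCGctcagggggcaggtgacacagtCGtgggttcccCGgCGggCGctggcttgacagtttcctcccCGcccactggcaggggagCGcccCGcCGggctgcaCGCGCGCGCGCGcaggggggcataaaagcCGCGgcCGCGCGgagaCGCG
The window holds 29 CpG, more than 85.9% of the 35116 promoters, whose median was 11. The HPGD window, like those of PTGES2, PTGER4 and PTGR1, lies inside the interval that the deposited table gives for its gene. Its GC content was 70.8% against a median of 58% over all promoters, and it held a GC box on the opposite strand at -85 but no TATAAA and no TGACG. Of the other genes, PTGES2 had 35 CpG, PTGER2 28, PTGER4 26, PTGR1 13, PTGS2 and PTGES 9 each, PTGS1 4 and PLA2G4A 2. The window used for PTGS1 lay at a start 491 bases from the canonical GENCODE start, and that for PTGR1 at one 216 bases away.

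PTGR1 (ENSG00000106853, chromosome 9, positions 111549722 to 111599855, minus strand) encodes a reductase that acts on the oxidised prostaglandins and on leukotriene B4. It was at 35.2, 34.6 and 34.4 CPM in the controls and at 36.6, 35.5 and 42.3 CPM with SAM. The SAM libraries lay above the controls, with SAM 3 the farthest. Its log2 fold change was 0.14 ± 0.09 (SE, interval -0.07 to 0.35, edgeR adjusted p = 0.353), and it was 0.06 without SAM 3. PTGR1 overlaps ZNF483 on the opposite strand, which had 102 counts over the 6 libraries against 3915 for PTGR1.

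Between genes, levels were compared as CPM per kilobase of the canonical transcript. PTGES2 was highest, at 59.6 ± 1.55 in controls and 70.4 ± 6.36 with SAM, followed by PTGES at 35.5 ± 1.87 and 37.99 ± 5.66 and PTGR1 at 21.7 ± 0.254 and 23.8 ± 2.26 (SD, n = 3). PTGER4 came next, at 6.09 ± 0.162 and 4.74 ± 0.820. The ranges of these 4 neighbours did not overlap in either group. HPGD was at 3.87 ± 0.530 per kilobase in controls, above PTGS2 at 1.23 ± 0.146 in every control library. With SAM, HPGD was at 1.70 ± 0.361 and PTGS2 at 1.64 ± 0.719, their ranges overlapped, and HPGD was the higher of the pair in 1 of 3 libraries. PTGS2 and PLA2G4A did not differ beyond their spread in either group, and PTGS1 and PTGER2 were the lowest, with overlapping ranges in the controls.

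The balance of synthesis and breakdown transcripts was described by ratios of CPM per kilobase, which were chosen after the values were seen and carry no test. The ratio of PTGS2 to HPGD was 0.301, 0.339 and 0.316 in the controls and 1.07, 1.15 and 0.601 with SAM. All SAM libraries were above all controls, SAM 3 included, although its PTGS2 level was the lowest of the 6. The ratio of PTGES to HPGD was 8.18, 9.62 and 9.90 in the controls and 15.6, 23.4 and 31.2 with SAM, again without overlap. Both ratios share HPGD, the 1 called member, as the divisor, so its lower level alone raises both. PTGR1, the other breakdown gene, was not used. The transcripts of PTGES and HPGD have GC contents of 56.4% and 35.1%, and the ratios are not corrected for the GC trend of SAM 3.

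**Figure D4:**
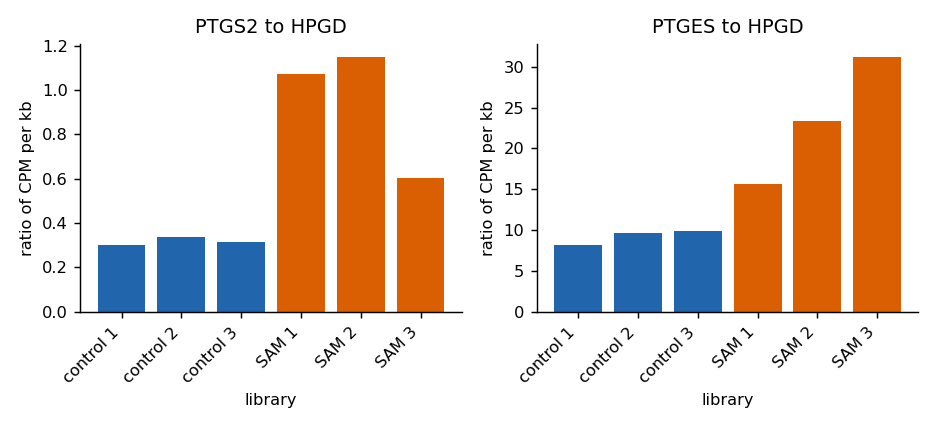
Ratio of PTGS2 to HPGD (left) and of PTGES to HPGD (right) in each library, as CPM per kilobase. Blue bars are controls and orange bars SAM libraries. The controls lie at 0.301 to 0.339 and at 8.18 to 9.90, and the SAM libraries at 0.601 to 1.15 and at 15.6 to 31.2.

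Around these 9 genes, 8 lists of other pathway genes held 108 genes, of which 87 were tested. Of these, 8 were higher and 3 lower with SAM, or 12.6% called, near the background of 10.4%, and their median log2 fold change was 0.03. Arachidonate release had 1 higher, 0 lower and 10 not called among 11 tested. PLA2G15, a lysosomal phospholipase, rose from 11.8 CPM ± 1.10 to 16.9 CPM ± 2.27 (SD, n = 3, log2 fold change 0.52, edgeR adjusted p = 0.0406). The most abundant gene of that list per kilobase, S100A10, an annexin partner, was at 232 ± 13.6 and 275 ± 37.8 CPM per kilobase and was not called. In arachidonate supply and reacylation, 1 gene rose, 1 fell and 10 were not called. LPCAT1, a lysophosphatidylcholine acyltransferase, rose from 195 CPM ± 6.12 to 259 CPM ± 10.5 (0.41, adjusted p = 0.0209), and ACSL3, a long-chain acyl-CoA synthetase, fell from 237 CPM ± 1.18 to 182 CPM ± 15.0 (-0.38, adjusted p = 0.0313). The desaturase gene FADS2, the most abundant of that list, was at 122 ± 1.81 and 118 ± 11.3 CPM per kilobase.

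Among the other terminal synthases, PTGES3 was called higher in edgeR and 5 of 6 tested genes were not called, with a list median of 0.37. DESeq2 called 3 genes of this list higher and limma voom 2. PTGES3 encodes the cytosolic prostaglandin E synthase, also known as the HSP90 partner p23, and went from 406 CPM ± 9.54 to 522 CPM ± 46.5 (0.36, edgeR adjusted p = 0.0424). It was the most abundant gene of its list, at 214 ± 5.03 CPM per kilobase in controls. Of 4 tested genes in the list of other prostanoid receptors, 2 fell and 2 were not called, and the list median was -0.23. Over all genes tested, 5.24% were called lower. PTGFR, the receptor of prostaglandin F2 alpha, fell from 10.8 CPM ± 0.920 to 7.50 CPM ± 1.13 (-0.54, adjusted p = 0.0472). PPARG, a nuclear receptor for prostaglandin J2 metabolites and fatty acids, fell from 184 CPM ± 6.69 to 136 CPM ± 10.9 (-0.44, adjusted p = 0.0227). Of the 2 not called, TBXA2R went the other way, with every SAM library above every control. Its log2 fold change was 0.46, with a 95% interval of 0.03 to 0.89. PTGFRN was at -0.02, and its groups overlapped. PTGER1 and PTGER3, of EP1 and EP3, were below the filter, so PTGER4 was the only tested EP receptor gene.

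Other transport and breakdown genes had 0 called of 7 tested in edgeR, with a median of 0.17, and also 0 at an unadjusted p under 0.05 and 0 in DESeq2 or limma voom. The lipoxygenase and leukotriene branch had 0 called of 11 in edgeR, with a median of -0.10. There, 1 gene above and 2 below the controls had an unadjusted p under 0.05, DESeq2 called 1 and limma voom 0. LTA4H, the leukotriene A4 hydrolase and the most abundant of that branch, was at 74.5 ± 0.400 and 74.7 ± 5.42 CPM per kilobase. CBR3, a carbonyl reductase and the highest of the former list, was at 12.7 ± 0.260 and 14.2 ± 2.23. All 20 genes of EP2 and EP4 signalling through cyclic AMP were tested, and 3 rose and 0 fell, with a median of -0.02. The phosphodiesterase gene PDE4A, which degrades cyclic AMP, rose from 15.5 CPM ± 1.02 to 21.8 CPM ± 1.35 (0.49, edgeR adjusted p = 0.0231). ARRB2, a beta-arrestin that uncouples receptors, rose from 45.4 CPM ± 2.97 to 62.9 CPM ± 6.31 (0.47, adjusted p = 0.0220), and CREM, a cyclic AMP-responsive transcription factor, from 71.5 CPM ± 0.522 to 93.2 CPM ± 7.22 (0.38, adjusted p = 0.0339). GNAS, the stimulatory G protein and the most abundant gene of the list, was at 495 ± 2.65 and 472 ± 47.3 CPM per kilobase.

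Among regulators of PTGS2 transcription and mRNA stability, 2 of 16 tested genes rose and 0 fell, with a median of -0.01. FOSL1, an AP-1 subunit, rose from 236 CPM ± 12.1 to 403 CPM ± 34.6 (log2 fold change 0.78 ± 0.10 SE, edgeR adjusted p = 0.00293). IL1B, the cytokine interleukin 1 beta and the most abundant gene of the list per kilobase, rose from 315 CPM ± 17.8 to 481 CPM ± 27.4 (0.61 ± 0.09 SE, adjusted p = 0.00680). With 5 libraries in place of 6, 139 to 255 genes of the whole table were called without control 1, control 2, control 3 or SAM 1. The count was 3233 without SAM 2 and 2499 without SAM 3, against 1598 with all 6. FOSL1 was called whichever library was left out, and IL1B was not without control 1 (adjusted p = 0.0516) or control 3 (0.0733). Each of the 9 other called list genes lost its call without control 1, control 2, control 3 or SAM 1, at adjusted p of 0.0638 to 0.205, and PTGFR also without SAM 3 (0.0506). The fold changes of all 9 kept their sign with 1 library left out. LPCAT1 then lay at 0.37 to 0.44 and PPARG at -0.49 to -0.39 on the log2 scale.

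**Figure D5:**
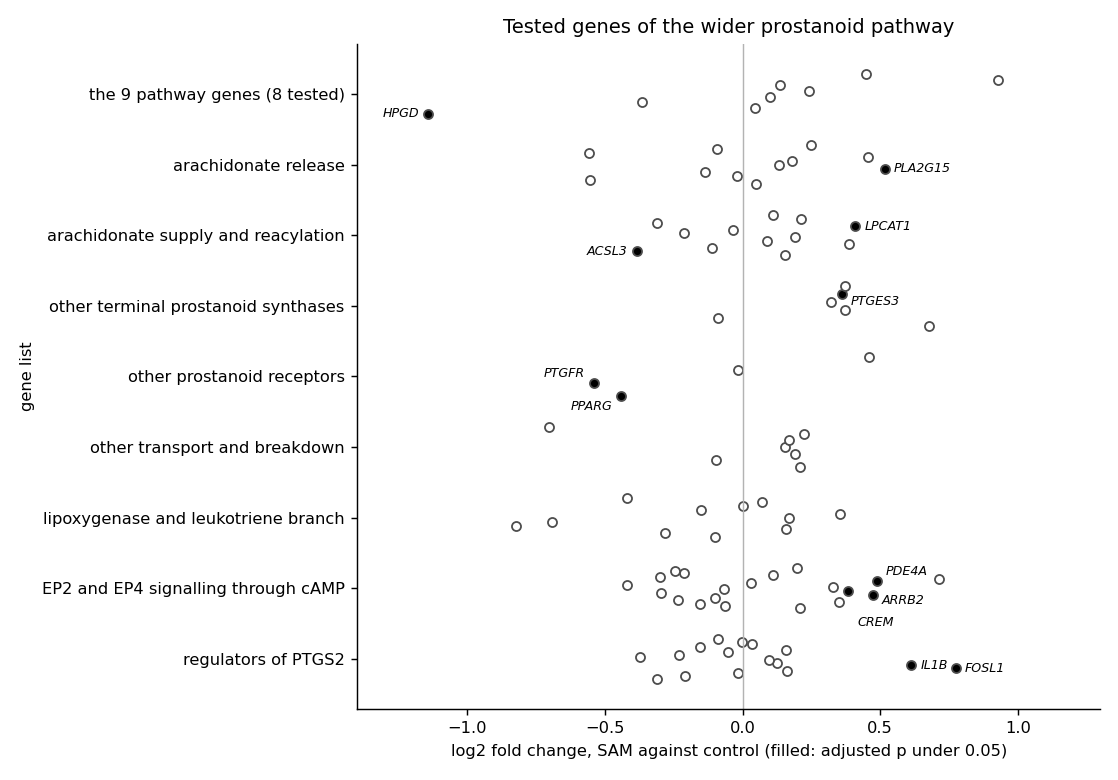
Log2 fold change of each tested gene, SAM against control, for the 9 genes and the 8 lists of other pathway genes, with called genes filled and named. HPGD lies farthest to the left at -1.14, and the 11 called genes of the lists lie between -0.54 and 0.78.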

How the data were processed

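Per the labels, RNA from PC-3 cells was isolated with a Peq-Gold kit and made into TruSeq libraries for a HiSeq2000. The study's text gives another SAM dose, kit, sequencer and reference, and the labels were followed. It also describes its vehicle as sulfuric acid and ethanol in PBS, where the labels give PBS. From the submitters' processing notes come hg19 and mm10 as builds and, with no role for any, the tools STAR 2.4, HTSeq 0.6.1, SAMtools 0.1.19, DESeq2 1.8, CASAVA 1.8.2 and FastQC 0.10.0. The authors deposited raw counts per Ensembl gene, and a second table whose deposited signal is that count divided by 1 size factor per library. Neither table holds fold changes or p-values of the authors. The deposited coordinates belong to GRCh38, since 99.9% of 51488 identifiers overlap the same gene of GENCODE 44, but the counts may rest on an older annotation. Strand use is not given in the sources used.

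Counts were filtered with filterByExpr and tested with glmQLFit and glmQLFTest of edgeR 4.0.16 (R 4.3.3), two-sided, with TMM factors and treatment as the only term. The threshold was a Benjamini-Hochberg adjusted p under 0.05. The SE is the absolute log2 fold change over the square root of F. Chi-square values between libraries of a group were far above sampling noise, so none was merged. Length and GC content are those of the canonical GENCODE transcript, present for 97.2% of tested genes. Promoters come from RefSeq on GRCh38.p14.

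The members and gene lists were chosen with earlier results of these data known. Named genes were every member, up to 4 called genes per list with the smallest p and its most abundant gene per kilobase. The 5 searched genes most like PTGS2, the uncalled tested genes of the receptor list and PTGER1 and PTGER3, below the filter, were also named. Alternatives were RLE, upper-quartile and library-total scaling, DESeq2 1.42.0, limma 3.58.1 with voom, limma-trend on the deposited signal as log2(signal + 1), robust dispersion, no low-count filter or one of 1 CPM in 3 libraries, a block on replicate number, leaving out each library or both control 1 and SAM 2, and a threshold of 0.01. The removal of GC and length trends from each library was added after seeing the data. Figures were drawn with matplotlib 3.10.9. Some marker genes of the line are not reported here.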

Additional observations from a re-analysis of the deposited data

How the results depend on the processing

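The count of genes called in the whole table, 1598 with all libraries, moved most with the libraries used: it was 139 to 3233 with 1 library left out, 954 without both control 1 and SAM 2, and 1028 with the replicate number as a block. It was 2743 without a filter on low counts, where 30874 genes were tested in place of 15312. At an adjusted p under 0.01 it was 253. The count was 3203 with GC and length trends removed, an alternative chosen after seeing the data. Of the 9 genes, 0 were called higher, against 1 without the filter, 1 with the trends removed and 0 to 2 with 1 library left out. 1 was called lower, against 2 with the trends removed and 1 to 2 with 1 library left out. Of the other pathway genes, 8 were called higher, against 5 with library totals, 5 with the replicate block, 2 without control 1 and SAM 2, 2 at an adjusted p under 0.01, 16 with the trends removed and 1 to 13 with 1 library left out. 3 were called lower, against 5 without the filter, 0 with the replicate block, 1 without control 1 and SAM 2, 0 at an adjusted p under 0.01, 6 with the trends removed and 0 to 7 with 1 library left out. The cause of these differences was not tested.

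The fitted sign turned for PTGES without SAM 3, at -0.0205, within a range of -0.02 to 0.19 on the log2 scale with 1 library left out. It turned for PLA2G4A, over -0.10 to 0.16 with 1 library left out and at -0.00282 with the replicate block. Neither gene was called under any alternative. HPGD was called under all 18. Over the tested members and the called list genes, 271 comparisons with an alternative kept their direction and side of the threshold, 60 lost a call and 7 gained one.

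Libraries of the 2 groups carry the same numbers, but the labels do not say that a number marks a shared culture or day. The correlation of the deviations of same-numbered libraries from their group means was -0.17, -0.40 and 0.13, while control 1 and SAM 2 correlated at 0.45, so the number was not taken as a pairing. With the replicate block HPGD was at -1.19 (edgeR adjusted p = 0.00268) and PTGS2 at 0.33 (adjusted p = 0.369). Depth limits PTGER2, at 2 to 10 counts per library, and PTGS1, at 12 to 56.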
